A study of Mus musculus with 12 samples.

Results

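The Hox, Fox, Sox, Pax, Lhx, Gata and Tbx families hold DNA-binding proteins that set body regions, organs and cell types in the embryo. The genes described here are the 130 protein-coding genes of these 7 families on chromosomes 1 to 19, of 20560 protein-coding genes on those chromosomes. They were taken by symbol, with Sox2 and Tbx3 left out, in families chosen with earlier results of these data known. They comprise 39 Hox, 41 Fox, 17 Sox, 9 Pax, 8 Lhx, 5 Gata and 11 Tbx genes. What was measured is where FLAG-tagged Zscan4 was found on chromatin in J1 cells, a line of mouse embryonic stem cells (strain label 12910la). The cells carried a plasmid with the coding sequence of Zscan4c behind the CMV promoter, given as 1000 ng of vector. From 24 h after transfection they were kept for 10 days in 500 ug/ml G418, and clones were then picked, so that the cells may represent 1 clone. Chromatin was precipitated with an anti-FLAG antibody in 1 of the 12 labelled samples, and only its list of regions was used. The 6 histone mark samples and the 5 inputs, from wild-type and overexpressing cells, were not analysed here.

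Zscan4, which joins a SCAN domain to zinc fingers, is made in the 2-cell embryo and, briefly, in a small fraction of embryonic stem cells. Genes of the 7 families are mostly silent or low in such cells and are well known as targets of Polycomb repression there. Hox genes lie in 4 tight clusters in which gene order follows the order of expression along the body axis, while most genes of the other families stand alone, often beside long stretches without genes.

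The deposited list held 4973 regions, of which 4759 lay on chromosomes 1 to 19. Each region has a score from the authors, a whole number of unstated scale, which serves below only to rank regions within this list. Over the whole list the median score was 33. A gene was counted when the midpoint of a region lay in its annotated span or within 50 kb of it on either side. The list comes from a single immunoprecipitation without a replicate and shows only what passed the authors' threshold. A gene without a listed region is therefore not shown to be unbound, and no difference below was tested for significance. Intervals cover counting error and treat genes as separate, although neighbours can share a region.

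FLAG-Zscan4 regions were sparse around the genes of these families. Of the 130 genes, 20 had a region in the gene or within 50 kb (15.4%, 95% Wilson interval 10.2 to 22.6%), against 27.4% of all protein-coding genes. The developmental genes are short, with a median span of 7.11 kb, and short genes offer less room for a region. When each was given the share found among other protein-coding genes of like span, 32.7 genes were expected. The observed number was 0.612 times that (interval 0.405 to 0.898). Without the Hox genes the ratio was 0.703, and its interval included 1 (0.452 to 1.05).

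Within ranges of length the share was lower in the shorter ranges, beyond counting error in 1 of them. Of the 79 genes shorter than 10 kb, 10 had a region (12.7%, 95% Wilson interval 7.02 to 21.8%), against 19.2% of 7199 other protein-coding genes of that length, which lies within that interval. Of the 44 genes from 10 to 100 kb, 6 had one (13.6%, interval 6.40 to 26.7%), against 29.4% of 10926 others, which lies above it. Only among the 7 genes of 100 kb or more was the share higher, at 4 of 7, against 44.4% of 2305 others, and 7 genes give an interval from 25 to 84.2%.

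**Figure D1:**
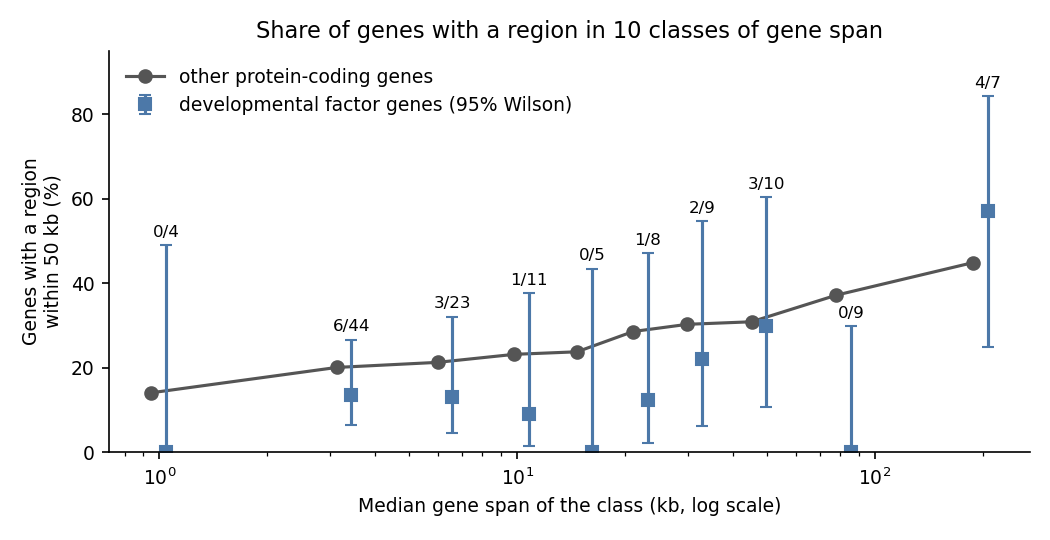
Share of genes with a FLAG-Zscan4 region in the gene or within 50 kb (vertical axis, %) in 10 classes of gene span (horizontal axis, median span of the class in kb, log scale), for the developmental factor genes (squares, with 95% Wilson intervals and the count of genes) and for other protein-coding genes (circles). The share among other genes ran from 14.1% in the shortest class to 44.9% in the longest, and the developmental genes lay below that line in each class except the longest, where 4 of 7 had a region.

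The families differed in how many of their genes had a region, though the counts are small. Of the Hox genes 3 of 39 had one, where 8.49 were expected from span. All 3 count the same region, and the 39 genes lie in 4 clusters, so they are not separate counts. The windows of the 4 clusters held 1 region, where 1.57 were expected at the rates of their chromosomes. For other families the numbers were 8 of 41 Fox genes (10.3 expected from span), 4 of 17 Sox genes (4.21) and 4 of 11 Tbx genes (3.14). Of the Pax genes, 1 of 9 had a region (2.91 expected). None of the 8 Lhx genes (2.15 expected) and none of the 5 Gata genes (1.45) had one. The families differ by these counts, but the 95% intervals of all 7 overlap, and the Tbx interval alone runs from 15.2 to 64.6%. Without the Hox genes 17 of the remaining 91 genes had a region (18.7%) against 24.2 expected, a ratio of 0.703 with an interval from 0.452 to 1.05.

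**Figure D2:**
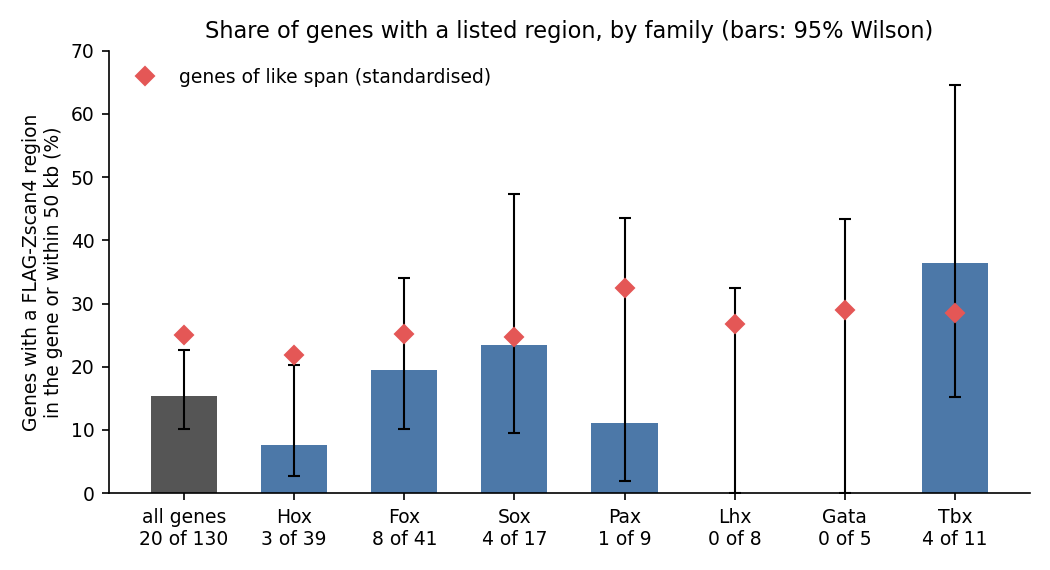
Share of genes with a FLAG-Zscan4 region in the gene or within 50 kb (bars, %), with 95% Wilson intervals, for all 130 genes and for each family, and the share standardised on gene span (diamonds). The Hox bar (7.69%) lies below its diamond (21.8%), the Tbx bar (36.4%) lies above its own (28.5%), and Lhx and Gata have no gene with a region. The Hox bar counts 39 genes in 4 clusters, and its 3 genes with a region share 1 region.

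Because neighbouring genes can count the same region, the genes were also grouped into 90 loci wherever their 50 kb windows met. Of these, 82 held a single gene, and 8 held from 2 genes to the 11 of the Hoxa cluster. A region was found at 17 of the 90 loci (18.9%, 95% Wilson interval 12.1 to 28.2%). The windows together spanned 14.8 Mb and held 23 different regions, a density of 1.55 per Mb with a 95% exact Poisson interval from 0.982 to 2.32. The windows around all other protein-coding genes held 2.38 regions per Mb (2.30 to 2.46), and chromosomes 1 to 19 as a whole 1.98. At the rate of their own chromosomes, 28.0 regions would lie in the developmental windows, a ratio of 0.822 whose interval (0.521 to 1.23) includes 1. Against the chromosomes the lower density was thus within counting error, and against the surroundings of other genes the intervals of the densities just met.

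The 23 scores near these genes had a median of 28 (range 14 to 130, 95% interval of the median 21 to 42), beside 31 for the 3704 regions within 50 kb of other protein-coding genes and 32 for all regions on chromosomes 1 to 19. A score of 100 or more was reached by 1 of the 23 (4.35%), beside 8.50% of those near other protein-coding genes and 10.3% of all on those chromosomes. Their median width was 282 bp (221 to 1360 bp), beside 306 bp. With only the regions that scored 33 or more, 9 of the 130 genes had one within 50 kb, beside 14.5% of protein-coding genes and 16.9 genes expected from span.

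Most of the 23 regions were outside the developmental genes themselves. With 50 kb added on either side, however, most of the window around a short gene lies outside it. No matching share is given for regions near other genes. Of the 23, 6 were inside a developmental gene, and 17 were outside, of which 2 lay in another protein-coding gene and 2 in a long non-coding RNA gene. For 10 of the 17 the nearest protein-coding gene belonged to none of the 7 families. Nearness within 50 kb is therefore a statement of position and does not assign a region to a gene. Within 10 kb, 6 of the 130 genes had a region, beside 12.2% of protein-coding genes and 12.5 genes expected from span. Within 100 kb, 41 had one (31.5%), beside 41.8% and 52.2 genes.

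Only 5 of the 130 genes held a region in the annotated gene itself, beside 8.01% of all protein-coding genes, and 6.92 genes were expected from span, a ratio of 0.723 with an interval from 0.311 to 1.63. These were Sox5, Foxp1, Sox6, Foxn3 and Tbx19. The first 4 are among the 5 longest of the 130 genes, at 954 kb, 597 kb, 570 kb and 374 kb, and Tbx19 spans 22.9 kb. Of other protein-coding genes of 100 kb or more, 30.8% held a region.

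Tbx19 encodes the T-box factor of the pituitary cells that make adrenocorticotropic hormone. It had 2 regions, and no other gene of the 7 families had one so close to a listed transcription start. The region of score 42 (chromosome 1, 165165088 to 165165320) lay 4.43 kb upstream of the start. The region of score 23 (165153689 to 165153912) lay in the gene, 6.97 kb downstream of that start and 30.4% of the way along it.

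Foxn3, a forkhead repressor linked to cell cycle checkpoints, held 2 regions. The stronger (chromosome 12, 99409988 to 99410288, score 67) lay 154 kb from the upstream end of the gene, and the weaker (99504816 to 99505394, score 42) lay 58.6 kb from it. They stood on either side of the single start that the promoter table lists, 39.9 kb downstream and 55.0 kb upstream of it.

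Foxp1, a forkhead factor of the developing heart, lung and B lymphocytes, held a region of score 58 (chromosome 6, 99241852 to 99242100). It lay near the middle of the gene, 47.0% of the way along, and 24.5 kb downstream of the nearest of 3 listed starts. Its relatives did not share this position. Foxp4 had a region of score 18 at 24.0 kb beyond its downstream end, and the nearest region to Foxp2, a gene of 541 kb, was 355 kb away.

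Sox5 and Sox6 encode SoxD proteins that act together in cartilage formation, and each held 1 region of score 35. In Sox5 the region (chromosome 6, 144768961 to 144769200) lay at the upstream end, 13.2 kb into 954 kb. In Sox6 it (chromosome 7, 115818049 to 115818740) lay 222 kb in and 6.32 kb downstream of the nearest of 6 listed starts. Sox13, the third SoxD gene, had no region inside it, and its nearest, of score 18, was 34.4 kb away.

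**Figure D3:**
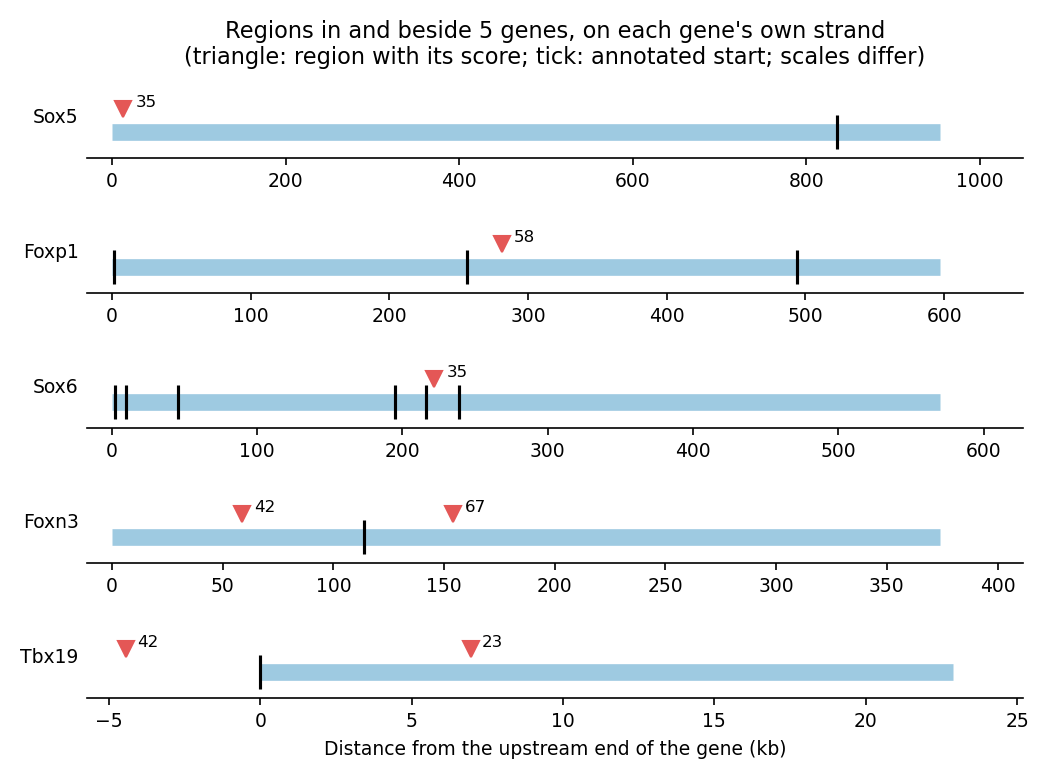
Position of FLAG-Zscan4 regions (triangles, labelled with the score) in and beside the 5 genes that held one, each drawn on its own strand with distance from the upstream end of the gene in kb, on scales that differ between genes. Blue bars are the annotated genes and black ticks the starts in the promoter table, which is not complete. The Sox5 region sits at the upstream end of the gene, and the 2 regions of Foxn3 lie on either side of its listed start.

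The starts of these genes were free of listed regions where they could be examined. The RefSeq promoter table (GRCm38.p6) matched 85 of the 130 genes with 105 windows, each from 250 bases before a start to 50 after it. No region overlapped any of the 105 windows. Overlap was rare for every gene, however, at 19 of 20085 windows of protein-coding genes (0.0946%).

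In vitro selection has given TGCACAC as the core of the sequence that ZSCAN4 prefers, and the protein has been reported at CA repeats. In the 250 bases before the start, on either strand, the letters TGCACAC stood in 3 of the 105 windows (2.86%), beside 3.23% of the windows of all protein-coding genes. The genes were Foxd1, Lhx9 and Pax6. A run of 6 CA dinucleotides, searched separately on both strands, stood in 1 window, that of Pax1, beside 0.737% of all windows. These letters describe the windows and are not binding sites. Among the 3 genes with TGCACAC only Foxd1, which marks the stroma of the developing kidney, had a region within 50 kb, and that region (score 18) lay 34.6 kb downstream of the start.

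Upstream windows of 4 genes are shown, 250 bases each, 5′ to 3′ on the strand of the gene and ending at the base before the start, from RefSeq on GRCm38.p6. Tbx19 and Hoxb1 are shown because, of the regions outside genes of the 7 families, theirs lay nearest to one, 4.43 kb upstream and 8.92 kb downstream of the listed start. Foxd1 and Lhx9 are shown for the letters TGCACAC or, read from the other strand, their complement, which are in capitals. The sequences of the FLAG-Zscan4 regions themselves were not analysed here.
Tbx19, chr1:165160774-165161023, minus strand: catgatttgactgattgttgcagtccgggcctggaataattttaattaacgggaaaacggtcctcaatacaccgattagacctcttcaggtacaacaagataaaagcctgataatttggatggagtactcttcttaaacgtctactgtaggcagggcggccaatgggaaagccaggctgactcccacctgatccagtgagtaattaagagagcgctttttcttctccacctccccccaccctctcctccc
Hoxb1, chr11:96365508-96365757, plus strand: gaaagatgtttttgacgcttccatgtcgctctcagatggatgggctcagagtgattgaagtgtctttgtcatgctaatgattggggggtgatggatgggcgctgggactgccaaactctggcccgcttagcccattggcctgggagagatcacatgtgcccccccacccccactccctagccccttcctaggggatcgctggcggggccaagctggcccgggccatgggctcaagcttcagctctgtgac
Foxd1, chr13:98353995-98354244, plus strand: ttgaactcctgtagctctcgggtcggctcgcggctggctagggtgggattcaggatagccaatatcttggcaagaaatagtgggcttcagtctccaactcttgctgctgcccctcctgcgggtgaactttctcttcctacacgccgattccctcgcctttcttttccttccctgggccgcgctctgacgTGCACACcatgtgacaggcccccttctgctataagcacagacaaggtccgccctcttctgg
Lhx9, chr1:138842445-138842694, minus strand: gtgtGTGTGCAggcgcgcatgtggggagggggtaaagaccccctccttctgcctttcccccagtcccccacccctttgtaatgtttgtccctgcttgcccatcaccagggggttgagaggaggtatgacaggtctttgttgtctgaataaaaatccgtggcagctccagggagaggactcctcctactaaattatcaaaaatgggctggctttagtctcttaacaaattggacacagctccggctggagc

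In these letters the TGCACAC of Foxd1 begins 61 bases before the start on the strand of the gene. In Lhx9, a LIM-homeobox gene of gonad and nervous system, the match is on the opposite strand at the far end of the window, and the nearest region was 131 kb from the gene. The Tbx19 and Hoxb1 windows hold no match.

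The 4 Hox clusters held no region between their first and last gene. The nearest midpoint was 432 kb from the Hoxa cluster (11 genes over 106 kb on chromosome 6), 165 kb from the Hoxc cluster (9 genes, chromosome 15) and 207 kb from the Hoxd cluster (9 genes, chromosome 2). The Hoxb cluster alone had a region within 50 kb. Measured from the last region on one side to the first on the other, the stretch without a listed region was 1239 kb around Hoxa, 655 kb around Hoxc, 1464 kb around Hoxd and 249 kb around Hoxb. No such stretches are given for other genes, so these lengths have no comparison. Over chromosomes 1 to 19 the list held only 1.98 regions per Mb. At the rates of their chromosomes, the 4 cluster windows of 0.892 Mb would hold 1.57 regions, so that the single one found is within counting error.

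The region at the Hoxb cluster (chromosome 11, 96374480 to 96374882, score 29) lay 6.43 kb beyond Hoxb1, outside any annotated gene. Hoxb1 stands at the end of the cluster that is expressed first, and it is active in the hindbrain. The same region was counted for Hoxb2 at 20.7 kb and for Hoxb3 at 26.8 kb, and these are the 3 Hox genes in the count above. Hoxb4 missed the limit at 53.0 kb. The 3 Hox genes thus stand for 1 region, which falls out when a score of 33 or more is required.

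**Figure D4:**
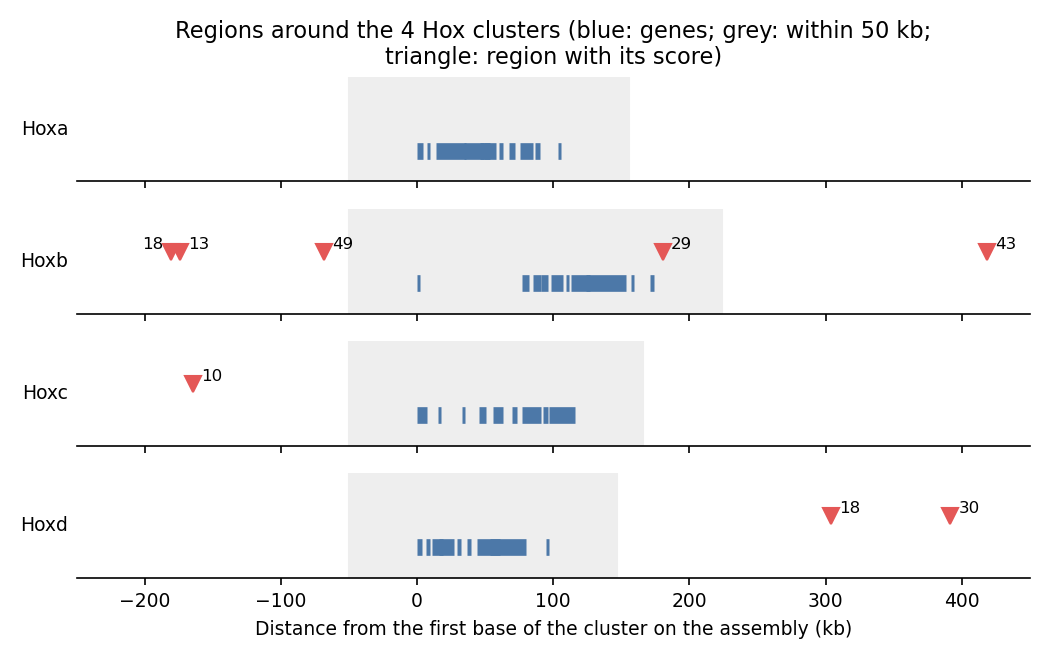
Annotated genes (blue) of the 4 Hox clusters, with distance from the first base of each cluster on the assembly in kb, the stretch within 50 kb (grey), and FLAG-Zscan4 regions (triangles, labelled with the score) from 250 kb before to 450 kb after that base. The grey stretch holds 1 region, of score 29, beside the Hoxb cluster, and none for Hoxa, Hoxc or Hoxd.

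Among the Fox genes, the highest score belonged to a region 44.1 kb from Foxj2 (chromosome 6, 122775995 to 122776271, score 90), which lay inside Slc2a3, a glucose transporter gene. Foxj1, the master regulator of motile cilia, had a region of score 72 at 36.7 kb (chromosome 11, 116372039 to 116372278), inside the neighbouring gene Rnf157. Both regions were thus in the body of another gene. Foxd4 had 4 regions within 50 kb, more than any other gene of the 7 families. Of these, 3 with scores of 49, 18 and 23 lay 12.3 kb, 14.5 kb and 17.2 kb upstream of the gene on chromosome 19, between 24912656 and 24918466, and the fourth (score 14) lay 27.5 kb on the other side. The first 3 were nearer to the gene Cbwd1, which was named after its position was seen. Foxq1 (score 25, 21.8 kb), Foxd1 (score 18, 32.2 kb from the gene) and Foxp4 (above) complete the Fox genes with a region.

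The 8 Fox genes with a region belonged to 5 of the 19 subgroups that the letter in the symbol marks. Of the Foxd genes 2 of 4 had one (0.805 expected from span), of the Foxj genes 2 of 3 (0.889), of the Foxp genes 2 of 3 (1.21) and of the Foxn genes 1 of 4 (1.35), and Foxq1 is the only gene of its subgroup. The expected numbers are so small that a count of 0 is little different from them, as for the 3 Foxo genes of the insulin pathway (1.03 expected) and the 3 Foxa genes, pioneer factors of endoderm (0.647). Foxk2 was the gene of the 7 families furthest from a region, at 1377 kb.

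Of the Sox genes, Sox1, a gene of neural progenitors, had 2 regions at 16.5 kb and 17.4 kb (chromosome 8, 12415876 to 12416279 with score 18, and 12416873 to 12417127 with score 28). Both were inside Sox1ot, a long non-coding RNA gene at this locus. The 10 developmental genes on chromosomes 1 and 8 included 3 with a region, and without these chromosomes 17 of 120 genes had one, 0.589 times the number expected from span. Sox17, which directs endoderm, missed the limit with a region of score 172 at 62.7 kb. Sox9, the regulator of cartilage and testis, and Sox11 were 1137 kb and 1250 kb from the nearest region.

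Of the Tbx genes, Tbx2 and Tbx4, neighbours on chromosome 11 that pattern limb and lung, shared 1 region of score 21 (85860579 to 85860887). It lay between them, 18.8 kb from Tbx2 and 25.6 kb from Tbx4. Tbx10 had a region of score 27 at 31.9 kb. The heart gene Tbx20 was just outside, at 67.5 kb from a region of score 50. With the Tbx2 and Tbx4 region counted once, the 4 Tbx genes stand at 3 loci.

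Pax4, which is needed for the insulin-producing cells of the pancreas, had the region of highest score near any of these genes (chromosome 6, 28466469 to 28466826, score 130, at 17.3 kb). It ranked 381st in the whole list and lay in no gene. The protein-coding gene nearest to it was Snd1, at 13.7 kb, which was named after its position was seen. No other Pax gene had a region within 50 kb, although several are long. Pax5, the B lymphocyte factor, spans 186 kb and lay 263 kb from its nearest region. The muscle and neural crest genes Pax7 and Pax3, at 96.5 kb and 95.9 kb, lay 527 kb and 83.3 kb from theirs. Tbx15, a skeletal gene of 114 kb, was the other of the 5 longest genes without a region, at 161 kb.

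Lhx genes encode LIM-homeobox factors of neurons, pituitary and limb, and Gata genes encode zinc finger factors of blood, heart and endoderm. Distances to the nearest region had a median of 137 kb over the 8 Lhx genes and 196 kb over the 5 Gata genes. Lhx4, at 79.7 kb, and Gata4, at 93.3 kb, came nearest.

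**Figure D5:**
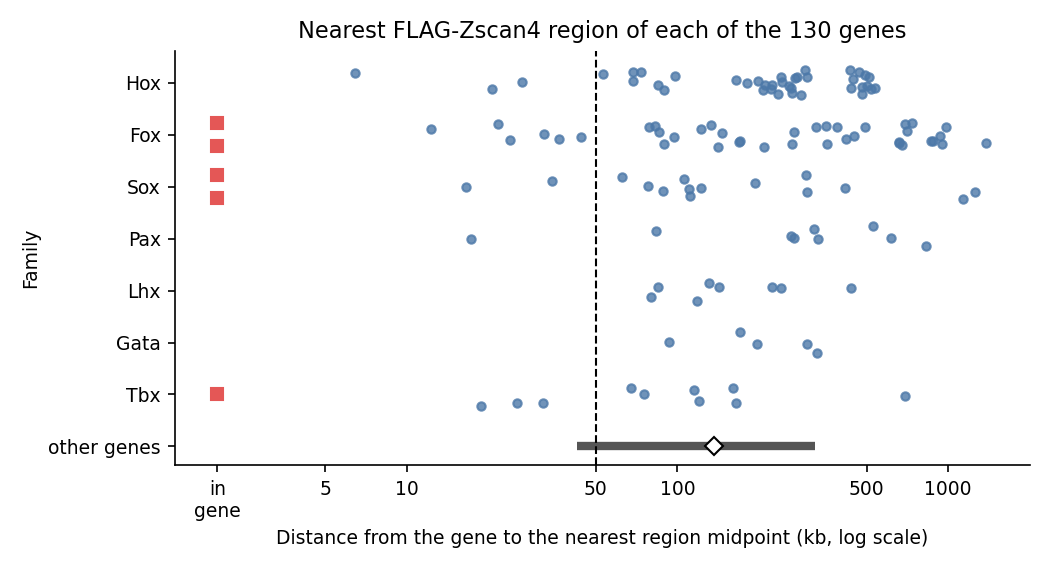
Distance from each of the 130 genes to the nearest region midpoint in kb (log scale), by family, with genes that hold a region as red squares at the left, the 50 kb limit as a dashed line, and the median (diamond) and quartiles (bar) of other protein-coding genes in the lowest row. Hox genes form runs of like distance because each cluster shares its nearest region, and Lhx and Gata genes all lie to the right of the limit.

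Over all 130 genes the nearest region was at a median of 208 kb (quartiles 84.7 and 417 kb), beside 136 kb (42.5 and 322 kb) for other protein-coding genes. The 39 Hox genes, which share nearest regions within each cluster, had a median of 243 kb, and the other 91 genes 165 kb. Among genes under 10 kb, Hox genes included, the medians were 210 and 174 kb. Intervals were not computed for these medians. At the limit, Sox13, Foxj1 and Foxj2 (34.4, 36.7 and 44.1 kb) were the last genes inside it, and Hoxb4, Sox17 and Tbx20 (53.0, 62.7 and 67.5 kb) the first outside.

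The surroundings of these genes also differed from those of other genes. Apart from the Hox clusters, a developmental gene had a median of 1 other protein-coding gene in its window, and 28.6% had none, beside a median of 3 and 9.40% for other protein-coding genes. Where the window held at most 1 other gene, 9 of 54 developmental genes had a region (16.7%), beside 29.1% of other protein-coding genes with like surroundings. Where it held 2 to 4, the shares were closer, at 8 of 32 (25%) beside 29.8%. Where it held 5 or more, 3 of 44 did (Hoxb3, Tbx10 and Pax4), beside 20.6%, and 33 of the 44 were Hox genes. These shares were not matched on span, and no intervals were computed for them. When genes were matched on both span and number of neighbours, the ratio was 0.640.

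Further lists of regulators were counted the same way, beside the same 27.4%. Of the other homeobox genes of patterning, 8 of 56 had a region (14.3%, Wilson interval 7.42 to 25.7%) against 13.2 expected from span. The interval lies below the 27.4% of all protein-coding genes but includes the share expected from span. Against span the lower count was thus within counting error. None of these 56 genes held a region inside the gene. The highest scores there were near Emx2 (122, at 42.5 kb), Lmx1b (107, at 13.1 kb) and Barhl1 (42, at 20.7 kb), genes of forebrain, limb and sensory neurons. Of the Hox cofactors and upstream homeobox genes, 2 of 11 had a region against 3.77 expected. These were Pbx4, which held one of score 46, and Cdx1, at 32.6 kb from one of score 23. None of the T-box genes T, Eomes, Tbr1 and Mga had a region (1.07 expected).

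Of the bHLH and zinc finger genes of patterning, 13 of 35 had a region (37.1%, 95% Wilson interval 23.2 to 53.7%) against 7.91 expected from span. That interval includes the 27.4% of all protein-coding genes and begins just above the share expected from span. It also treats genes that count the same region as separate. Gli2, a transducer of Hedgehog signals, held a region of score 26, and the highest scores were near the muscle gene Myod1 (111, at 8.53 kb), Olig3 (104, at 21.9 kb) and Atoh1 (90, at 3.63 kb), both genes of neural fate. Sall1, named after its count was seen, had 7 regions within 50 kb, and Mesp1 and Mesp2 shared theirs. Polycomb group genes, whose products silence many of the genes described here, had a region in 11 of 29 cases against 8.71 expected. Rbbp4 (score 111), Rnf2 (14) and Aebp2 (13) held one inside the gene, and the highest scores outside were near Pcgf2 (269, at 48.8 kb), Mtf2 (58) and Phc1 (57). Differences between the lists were not tested.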

How the data were processed

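The labels give 12 samples in 12 groups of 1, and only the list of FLAG-Zscan4 regions was used. The submitters' processing notes give mm10 as the build and, as tools, MACS2, Bowtie2, cutadapt and deepTools. Their versions, the threshold and any use of an input are not given in the sources used. Each deposited region carries 1 score from the authors, a whole number of unstated scale. Starts in the deposited list were read as counted from 0 and are printed counted from 1. Read counts are not in the list, so the depth behind it is unknown.

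Genes came from a RefSeq table of GRCm38.p6, whose chromosomes are those of mm10, leaving out 105 protein-coding genes placed below 3 Mb on an autosome, where no sequence is assembled. The table gives neither strand nor exons, so introns, exons and untranslated regions were not separated, and strands and starts came from the RefSeq promoter table. For the number expected from span, genes were split into 10 classes of equal size, and each gene of the 7 families was given the share of other protein-coding genes in its class with a region. Shares carry 95% Wilson intervals, counts of regions exact Poisson intervals and the median score a binomial interval of its rank. Counting was tested on simulated data with Python 3.11.15, pandas 2.3.3, NumPy 2.4.6 and SciPy 1.17.1. No significance test was made, since no sample has a replicate.

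Genes were named where they held a region, had one of the 10 highest scores, 3 or more regions or a region within 5 kb, stood next to the 50 kb limit, or were among the 5 longest without one. From each further list, genes with a region inside and up to 3 others by score were named. Other names, such as the Lhx and Gata genes nearest to a region, were chosen after their values were seen. The genes, families and lists were chosen with earlier results of these data known.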

Additional observations from a re-analysis of the deposited data

How the results depend on the processing

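The ratio of genes with a region to the number expected from span was 0.612 in the setting reported and ran from 0.479 (within 10 kb) to 0.786 (within 100 kb) over 15 alternatives. These point values were below 1 in each of the 15, but the interval included 1 for regions in the gene (0.723, 0.311 to 1.63), within 10 kb (0.221 to 1.01) and without the Hox genes (0.452 to 1.05), and it ended close to 1 within 100 kb (0.996) and for scores of 33 or more (0.974). Intervals were not computed for every alternative. It was 0.608 with 20 span classes and 0.629 when genes were compared within their own chromosome. Alternatives added after the data were seen gave 0.656 (0.415 to 0.994) for the longest gene of each locus and 0.640 with the number of neighbouring genes matched as well. The count of genes moved with the window and the score, as the construction of these settings requires: 5 genes with a region in the gene, 6 within 10 kb, 13 within 25 kb and 41 within 100 kb, and 9 genes with scores of 33 or more and 5 with scores of 55 or more. Loci with a region numbered 6 within 10 kb and 30 within 100 kb. Regions per Mb fell to 0.674 with scores of 33 or more and 0.337 with scores of 55 or more, since fewer regions enter, and were 1.29 without Foxd4, an alternative also added later. Overlap by 1 bp in place of midpoints and merging of regions under 1 kb apart left 20 genes with a region. Depth is unknown, and 1 immunoprecipitation gives no measure of how the list would vary.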
